A study of Mus musculus with 14 samples.

Results

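The study sequenced polyadenylated RNA from cultured macrophages that had been derived from the bone marrow of mice labelled wild-type, in 14 libraries that the labels place in 3 batches. Batch 3 holds 5 of the 14 libraries and is described here: 2 of untreated cells (replicates 3 and 6), 2 of cells given mast cell supernatant (replicates 3 and 5) and 1 of cells given mast cell intracellular trap supernatant (replicate 3). The treatments lasted 3.5 h, and the main comparison sets the 3 libraries with any supernatant against the 2 untreated ones over all expressed genes. Every group carries the genotype label WT. How the supernatants were made, how many mast cells they came from and whether replicates are separate cultures or animals is not given in the sources used here, and the p-values therefore reflect only how far these libraries spread, which may be technical. The treated arm pools both supernatants, so a difference between them counts as spread in the main comparison. Genes on which the supernatants differ were therefore less likely to pass it.

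The untreated libraries held 16494926 and 16771674 counts and the treated ones 11729073 to 12414738, so depth did not overlap between the arms; with all 5 thinned to one depth, a check chosen once the depths were known, the main comparison called 544 genes in place of 490. The share of counts from mitochondrial mRNAs lay between 1.493% and 1.941%. On the first principal component, with 54.46% of the variance, the untreated libraries lay at -27 and -33.1 and the treated ones at 15.6 to 25.2. The second component, with 20.78%, separated the trap library, at -26.3, from those with mast cell supernatant, at 15.8 and 14.4. Over 9705 genes averaging 5 CPM or more (CPM is a gene's count relative to the library's total, here scaled by the TMM method), the median absolute log2 difference was 0.147 between the untreated replicates and 0.109 between the mast cell supernatant replicates. Mast cell supernatant and untreated cells of replicate 3 differed by 0.159. For the typical gene the untreated libraries thus differed about as much as this 1 treated and untreated pair. Other treated and untreated pairs were not measured in this way.

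Defining macrophage genes were abundant in all 5 libraries, apart from a lysozyme gene and some genes of tissue macrophage subsets. Adgre1, which encodes the surface protein F4/80, was at 1868 to 2253 CPM, Csf1r, the receptor gene of macrophage colony-stimulating factor, at 2394 to 3233 CPM, and Cd68, a lysosomal glycoprotein gene, at 2596 to 2832 CPM. Cd163, a scavenger receptor gene, was at 0.12 to 0.566 CPM, and 29 of the 32 macrophage identity genes passed the filter on low counts. Lyz2, the gene of the macrophage lysozyme M (ENSMUSG00000069516, GRCm38 chromosome 10, 117277331 to 117282321), had 1 or 2 counts in each of the 5 libraries, untreated and treated, which is 0.0596 to 0.17 CPM of the total. In the 9 libraries of batches 1 and 2 it had 68853 to 224532 counts, or 5117 to 9882 CPM. The neighbouring Lyz1, a closely related lysozyme gene whose reads could be divided with Lyz2 in counting, was at 21.9 to 29.3 CPM in batch 3 and 2.48 to 11.2 CPM elsewhere. In a search added after seeing the data for genes above 5 CPM in every library of batches 1 and 2 and at least 10-fold under their lowest value in every library of batch 3, Lyz2 was the single gene found among 47937, and the reverse search found 0. The libraries of batch 3, untreated ones included, therefore differed from those of the other batches in the counts of this gene, although all carry the same genotype label. Whether that label holds for batch 3, and what made the batches differ, was not tested. Within batch 3 both arms share the low Lyz2 count.

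Mast cells store proteases, histamine and other mediators in granules and release them on activation, and the extracellular traps they form are webs of chromatin that carry granule proteins. Macrophages sense such material through surface and endosomal receptors. Their inflammatory response runs through immediate early genes, which switch on within minutes to an hour, and through NF-kB, a family of transcription factors held in the cytoplasm by inhibitors until the cell is stimulated. NF-kB then raises cytokine, chemokine and adhesion genes and also its own inhibitors, which end the response.

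With any supernatant, 490 of 12423 genes tested passed (3.94%, edgeR's quasi-likelihood test, Benjamini-Hochberg adjusted p under 0.05), and falls outnumbered rises: 123 genes were higher (0.99%) and 367 lower (2.95%). The changes were mostly small. Of the genes that rose, 48 changed under 1.5-fold, 54 changed 1.5 to 2-fold, 19 changed 2 to 4-fold and 2 changed more, while the falls numbered 111, 171, 75 and 10 in the same classes. The median log2 fold change was 0.65 among the rises and -0.71 among the falls. Calls were more frequent among abundant genes: 0.697% of the 574 genes under 1 CPM were called, 2.15% of those at 1 to 10 CPM, 3.87% at 10 to 100 CPM and 8.05% of the 2050 genes at 100 CPM or more. Protein-coding genes made up 97.55% of the called and 91.27% of the tested genes. In each of the 490 genes all 3 treated libraries lay on the same side of both untreated ones, beside 16.2% of all tested genes that did so on the higher side and 17.6% on the lower side. The test favours genes whose arms do not overlap, so this separation is no further support for the calls. The median over all tested genes was 0.00 (log2).

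The count of called genes rested on few libraries. It was 1012 without untreated replicate 3, 195 without untreated replicate 6, 93 without mast cell supernatant replicate 3, 165 without mast cell supernatant replicate 5 and 773 without the trap library, with 396, 160, 92, 155 and 452 of the 490 genes among them. Rises were 25.1% of the 490 calls and 46.44% of the 1012 without untreated replicate 3, where the excess of falls was small. With any other library left out they were 18.18% to 23.03% of the calls. Of the 78 genes named by rule and called, 26 passed with each library left out in turn.

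**Figure D1:**
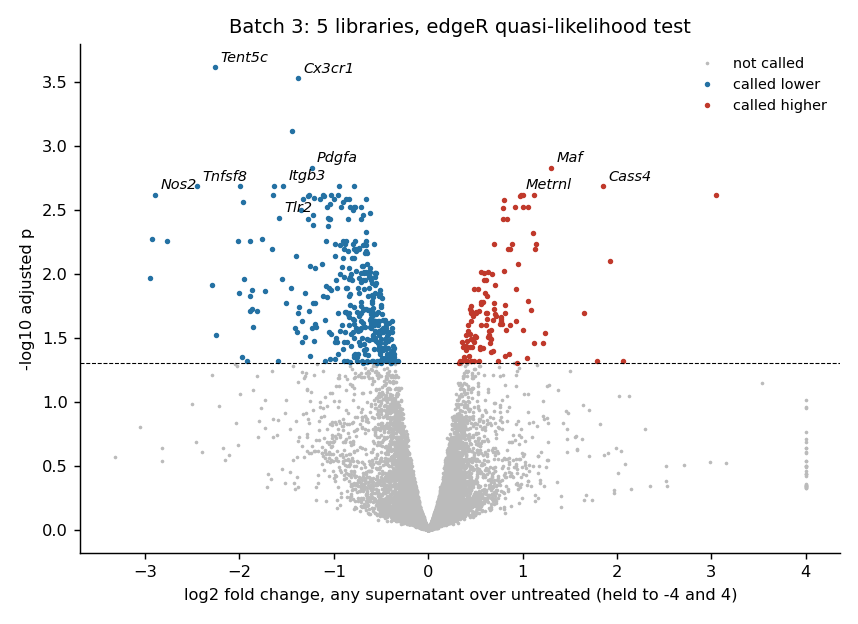
Each point is 1 of 12423 genes of batch 3; the x axis is the log2 fold change of any supernatant over untreated, held to -4 and 4, and the y axis is -log10 of the adjusted p, with the dashed line at 0.05. The 367 genes called lower (blue) outnumber the 123 called higher (red), and the points at the right edge are transcripts almost absent from untreated cells that did not pass.

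Among called genes averaging 5 CPM or more, the largest rise was in Cass4. Cass4, an adhesion scaffold gene of the Cas family (chromosome 2, 172393794 to 172433757), was at 4.14 and 2.94 CPM in the untreated libraries, 12.24 and 13.96 CPM with mast cell supernatant and 12.04 CPM with trap supernatant. It rose 3.60-fold, by log2 1.85 ± 0.20 (SE; adjusted p = 0.00206), and the treated libraries lay close together. Maf, a macrophage transcription factor gene (chromosome 8, 115682942 to 115707794), was at 81.2 and 66.5 CPM untreated and at 175, 207 and 165 CPM with mast cell (replicates 3 and 5) and trap supernatant. It rose 2.47-fold (log2 1.30 ± 0.13; adjusted p = 0.00148). Cnr2, the cannabinoid receptor 2 gene (chromosome 4, 135895394 to 135920207), stood at 14.7 and 14.4 CPM untreated against 29.1, 35.3 and 30.3 CPM treated, and rose 2.17-fold (1.12 ± 0.13; adjusted p = 0.00239). Il16, a cytokine gene (chromosome 7, 83642825 to 83745726), was almost the same within each arm, at 8.77 and 8.64 CPM against 18.1, 18.5 and 17.9 CPM (1.06 ± 0.14; adjusted p = 0.00297). Slc45a4, a membrane transporter gene, was at 22.73 and 23.04 CPM against 48.1, 50.9 and 39.2 CPM (1.01 ± 0.13; adjusted p = 0.00297). These 5 genes passed with each library left out in turn.

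Also among the 12 largest rises were Dusp6, a phosphatase gene of ERK feedback (1.24 ± 0.23), Camsap3, which encodes a microtubule minus-end protein (1.15 ± 0.16), Tubb2b, a beta-tubulin gene (1.13 ± 0.18), and Fhdc1, a formin-related gene (1.12 ± 0.25). The other 3 were Cdkn2b, a cell cycle inhibitor gene (1.09 ± 0.21), Lca5, a ciliary protein gene (1.06 ± 0.20), and Etv5, an ETS transcription factor gene (1.05 ± 0.21). The untreated libraries were unequal for Dusp6, at 24.5 and 13.2 CPM, and for Etv5, at 51.6 and 30.9 CPM, but all treated values (43.7 to 45.5 and 75.9 to 92.8 CPM) lay above both. All 7 lost their call without mast cell supernatant replicate 3 (adjusted p from 0.0549 for Tubb2b to 0.22 for Etv5). Dusp6, Fhdc1, Lca5 and Etv5 also lost it without mast cell supernatant replicate 5 (0.0785 to 0.139), and Fhdc1 and Cdkn2b without untreated replicate 6 (0.204 and 0.0813).

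At the same level of 5 CPM or more, the largest falls were deeper than the rises. Tnfsf8, the gene of CD30 ligand (chromosome 4, 63831308 to 63861347), was at 22.1 and 15.1 CPM untreated, 2.72 and 2.74 CPM with mast cell supernatant and 4.69 CPM with trap supernatant. It fell by 2.45 ± 0.25 on the log2 scale (5.47-fold lower; adjusted p = 0.00206). Tent5c, which encodes a poly(A) polymerase (chromosome 3, 100451628 to 100489324), had the smallest adjusted p of the comparison, 0.000241, and fell by 2.26 ± 0.16, from 32.1 and 34.9 CPM to 6.12, 6.23 and 8.56 CPM. Hivep3, a zinc finger gene (chromosome 4, 119733784 to 120138045) and the most abundant of the 12, stood at 162 and 197 CPM against 39.7, 39.3 and 59.3 CPM, a fall by 1.96 ± 0.19 (adjusted p = 0.00275). Gem, a small GTPase gene that early signals raise, fell by 1.99 ± 0.22 (adjusted p = 0.00206), from 14.5 and 13.6 CPM to 3.06, 2.74 and 4.77 CPM. In each of these 4 genes the trap library lay between the mast cell supernatant libraries and the untreated ones.

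F3, the tissue factor gene that starts coagulation, fell by 1.95 ± 0.31, while Usp2, a deubiquitinase gene with daily rhythm, had -1.64 ± 0.19 and Spsb1, a ubiquitin ligase adaptor gene, -1.64 ± 0.18, and all 3 passed with each library left out. The others of the 12 were Gbp5, a guanylate-binding protein gene (-2.02 ± 0.28), Arc, an activity-regulated cytoskeletal gene (4.01-fold lower, SE 0.34 on the log2 scale), Cd69, a leukocyte activation antigen gene (-1.87 ± 0.32), Acod1, which encodes the enzyme that makes itaconate (-1.86 ± 0.28), and Atp2b4, a plasma membrane calcium pump gene (-1.73 ± 0.24). Calls were lost without mast cell supernatant replicate 3 for Gbp5, Arc, Cd69 and Acod1 (adjusted p = 0.0739, 0.11, 0.115 and 0.138), without untreated replicate 6 for Cd69, Acod1 and Atp2b4 (0.0874, 0.226 and 0.226), without untreated replicate 3 for Acod1 and Atp2b4 (0.0624 and 0.0918) and without mast cell supernatant replicate 5 for Cd69 (0.0597).

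**Figure D2:**
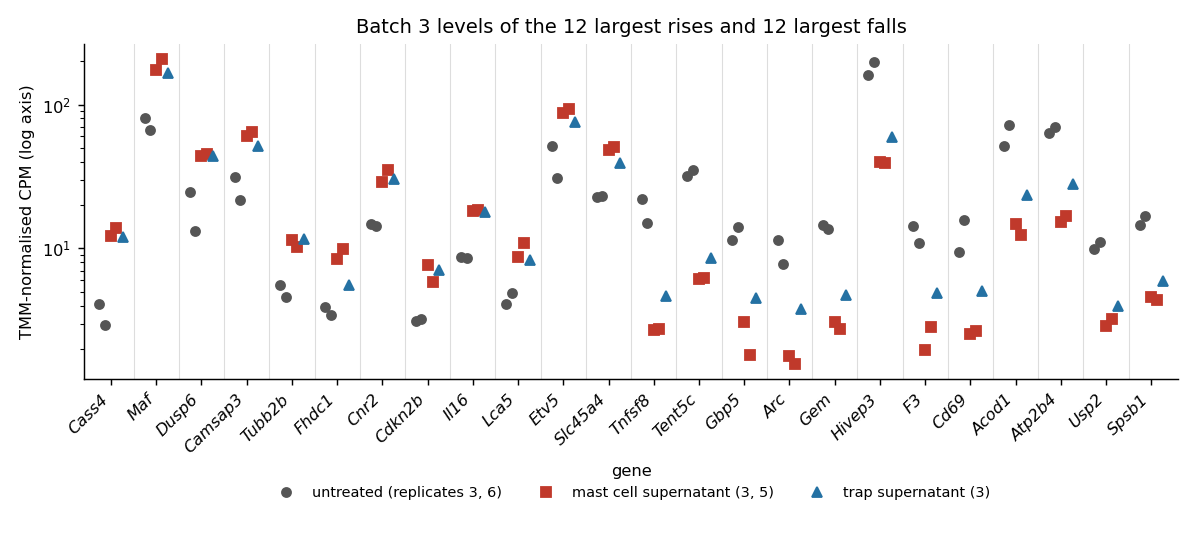
TMM-normalised CPM (log axis) of each batch 3 library for the 12 largest rises (left) and the 12 largest falls (right) among called genes averaging 5 CPM or more, with 1 point per library. The genes were chosen among those whose treated libraries all lie on 1 side of both untreated ones, so that separation is no result. In the falls the trap library (triangle) lies above both mast cell supernatant libraries (squares).

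Genes under NF-kB control included many falls and no rise. Of 29 members tested from a list of 33 NF-kB targets and inflammatory cytokines, 0 were higher and 14 lower, where 2.95% of all tested genes were lower, and the median log2 fold change was -0.56 beside 0.00 over all tested genes. Those that fell were Bcl3, Birc3, Ccrl2, Cd40, Cd83, Icam1, Nfkb1, Nfkb2, Nfkbiz, Nos2, Relb, Sod2, Tnfaip2 and Tnip1. They include subunits of NF-kB itself (Nfkb1, Nfkb2, Relb), inhibitors and modulators of the pathway (Bcl3, Nfkbiz, Tnip1) and effectors. In 20 members the treated libraries were all lower than the untreated ones, and in 1 all higher, beside 17.6% and 16.2% of all tested genes.

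The RefSeq promoter windows (250 bases before each start, GRCm38.p6) of 4 of the 8 such genes with a window held a match to the NF-kB binding motif, and a matched stretch of each is printed with the motif in capitals, to show the kind of site these genes carry. For comparison, a match on either strand was present for 5.53% of the tested genes with a window, 4.12% of those called higher and 9.66% of those called lower, and in 3.9% of all 32851 windows. A match describes letters in this window only. The list was made of NF-kB targets, so its share of matches says nothing about the response to supernatant.
Nfkb2, chr19:46304688-46304717, plus strand: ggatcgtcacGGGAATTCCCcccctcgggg
Nfkb2, second start, chr19:46305695-46305724, plus strand: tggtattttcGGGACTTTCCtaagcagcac
Tnip1, chr11:54962978-54963007, minus strand: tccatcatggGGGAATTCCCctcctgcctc
Ccrl2, chr9:111057555-111057584, minus strand: actttcccccGGGGCTTCCCctgagcgggg
Sod2, chr17:13007746-13007775, plus strand: cggggcggacGGGGTTCCCCgaggcggggc

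Tnip1, an inhibitor of NF-kB signalling, was at 332 and 354 CPM untreated and at 216, 192 and 238 CPM treated, and fell by 0.67 ± 0.10 (adjusted p = 0.00578). Nfkb2 and Nfkb1, which encode the p100 and p105 precursors of NF-kB subunits, fell by 0.42 ± 0.09 and 0.66 ± 0.11 (adjusted p = 0.0332 and 0.00959). Nos2, the inducible nitric oxide synthase gene, had the steepest fall of the list: 3.83 and 5.70 CPM became 0.510, 0.831 and 0.566 CPM, 7.41-fold lower (-2.89 ± 0.34; adjusted p = 0.00239). Cd83, a surface protein gene of activated antigen-presenting cells, fell by 1.19 ± 0.17, from 164 and 175 CPM to 64.9, 62.4 and 94.5 CPM; without untreated replicate 6 its adjusted p was 0.155 and without mast cell supernatant replicate 3 0.0723. Ccrl2, an atypical chemoattractant receptor gene, fell by 1.59 ± 0.29 and Sod2, the mitochondrial superoxide dismutase gene, by 0.58 ± 0.11 (adjusted p = 0.0483 and 0.0151). Nfkb1, Nfkb2, Ccrl2 and Sod2 were chosen after their values were seen, for their place in the pathway or their promoter match, and were not refitted with single libraries left out.

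Several cytokine and chemokine genes differed between the supernatants. Tnf, the tumour necrosis factor gene, was at 244 and 209 CPM untreated, 130 and 119 CPM with mast cell supernatant and 213 CPM with trap supernatant. It did not pass over both supernatants (-0.56 ± 0.27; adjusted p = 0.404), fell with mast cell supernatant (-0.86 ± 0.10; adjusted p = 1.83e-05) and was -0.09 ± 0.12 with trap supernatant (adjusted p = 0.795). The difference between the supernatants was itself 0.77 ± 0.12 (adjusted p = 0.00208). Cxcl1 and Cxcl2, neutrophil chemokine genes, showed the same order: Cxcl1 was at 56.6 and 44.6 CPM untreated, 19.2 and 20.0 CPM with mast cell supernatant and 53.6 CPM with trap supernatant, and trap exceeded mast cell supernatant by 1.45 ± 0.19 for Cxcl1 and 1.66 ± 0.20 for Cxcl2 (adjusted p = 0.00206 and 0.00501).

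Among 16 chemokines tested of 24, Ccl6 rose (0.41 ± 0.09, from 290 and 256 CPM to 359, 353 and 373 CPM) and Cxcl16 fell (-0.80 ± 0.11, from 550 and 709 CPM to 360, 347 and 377 CPM; adjusted p = 0.03 and 0.00318). The list's median was -0.79, and over all tested genes 0.99% rose and 2.95% fell. Ccl6 lost its call without untreated replicate 6 and without either mast cell supernatant library (adjusted p = 0.199, 0.103 and 0.132). Ccl2, Ccl3 and Ccl4, monocyte and lymphocyte chemokine genes, had log2 values of -1.19 ± 0.78, -1.55 ± 0.57 and -1.07 ± 0.33 and did not pass (adjusted p = 0.581, 0.336 and 0.205). Il1b, the interleukin-1 beta gene, was at 4.26 and 3.36 CPM untreated and 2.55, 2.91 and 4.77 CPM treated, and Ptgs2, the inducible cyclooxygenase gene, at 14.6 and 10.9 CPM against 8.33, 8.22 and 18.7 CPM; neither passed (adjusted p = 0.85 and 0.928) and the arms overlapped. Il10, the gene of the anti-inflammatory interleukin-10, was at 6.73 and 2.70 CPM untreated and 11.5, 11.96 and 10.7 CPM treated. All treated values were higher, but the untreated libraries differed 2.49-fold and the test gave 1.27 ± 0.32 (adjusted p = 0.0736).

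Immediate early genes showed a similar split. Of 36 tested, Dusp6 rose and Arc, Atf3, Gadd45b and Junb fell, with a median of -0.46. Over all tested genes 0.99% rose and 2.95% fell. Atf3, a stress-induced transcription factor gene, was at 644 and 739 CPM untreated and 413, 403 and 453 CPM treated (-0.71 ± 0.09; adjusted p = 0.00297). Gadd45b, a growth arrest gene, fell by 1.03 ± 0.16 (adjusted p = 0.0134), and its adjusted p rose to 0.0744, 0.174 and 0.109 without untreated replicate 3, untreated replicate 6 and mast cell supernatant replicate 3. Nr4a3, an orphan nuclear receptor gene of the immediate early class, had the widest range: 85.4 and 78.2 CPM untreated, 2.30 and 2.74 CPM with mast cell supernatant and 19.3 CPM with trap supernatant. Over both supernatants it did not pass (adjusted p = 0.269), but it fell with each alone, the log2 values being -5.01 ± 0.19 and -2.08 ± 0.18 (adjusted p = 3.75e-10 and 3.56e-06), and trap exceeded mast cell supernatant by 2.93 ± 0.25 (adjusted p = 8.35e-06). Nr4a1 and Egr2, genes of the same class, were at 34.7 and 29.1 CPM and 203 and 223 CPM untreated, 7.57 and 7.48 CPM and 82.0 and 81.0 CPM with mast cell supernatant, and 20.3 and 132 CPM with trap supernatant. In the smaller lists of inducible genes, 1 of 21 cAMP and CREB targets fell, Ptger4, a prostaglandin E2 receptor gene (-0.53 ± 0.11). Of 19 IL-10 and STAT3 targets 4 fell, Bcl3, Nfil3, Sbno2 and Tnfrsf1b. In either list 0 rose, and both counts of falls stand beside 2.95% of all tested genes. Bcl3, Nfil3 and Tnfrsf1b lost their call without mast cell supernatant replicate 3 (adjusted p = 0.0597, 0.0875 and 0.101), and Bcl3 and Nfil3 also without untreated replicate 6 (0.0601 and 0.0681) and mast cell supernatant replicate 5 (0.0563 and 0.0547). Ptger4 lost its call without untreated replicate 6 and without either mast cell supernatant library (adjusted p = 0.158, 0.115 and 0.115).

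**Figure D3:**
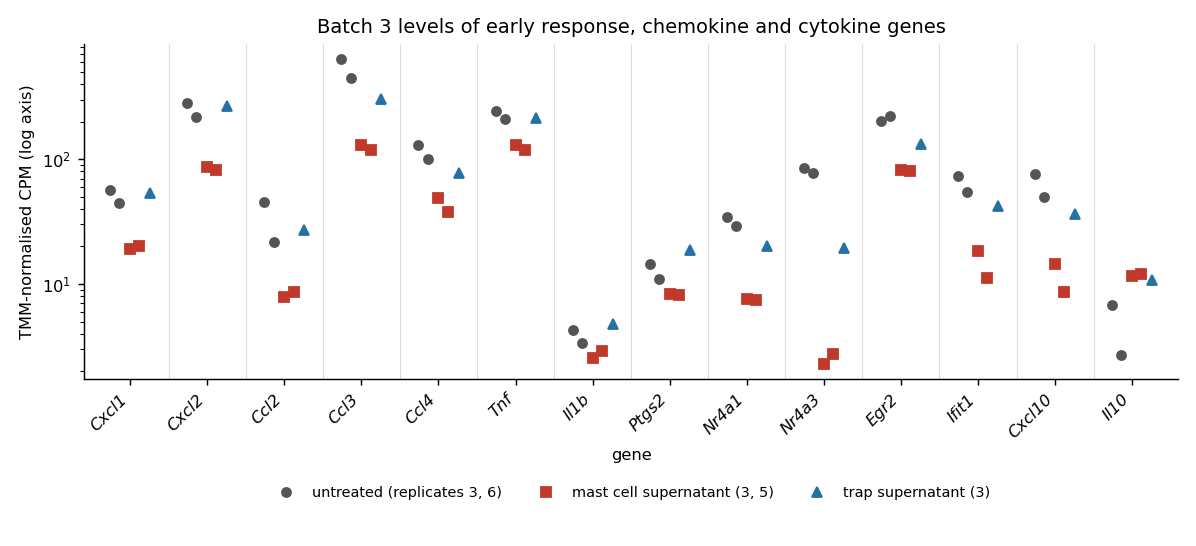
TMM-normalised CPM (log axis) of each batch 3 library for 14 early response, chemokine and cytokine genes, with 1 point per library. In every gene shown but Il10 the mast cell supernatant libraries (squares) lie below the untreated ones (circles) and the trap library (triangle) is level with or nearer to the untreated ones, as for Cxcl1 at 53.6 CPM beside 56.6 and 44.6 CPM.

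The type I interferon response is a program that cells use against viruses. Of 42 genes tested, 0 rose and 7 fell (Ddx58, Gbp2, Gbp3, Ifih1, Parp14, Rtp4 and Slfn5), the median was -0.68, and in 28 the treated libraries were all lower, in 0 all higher. Over all tested genes 2.95% fell and 17.6% were lower in all treated libraries. Ifih1, which encodes the RNA sensor MDA5, was at 78.3 and 69.6 CPM untreated and 40.3, 39.0 and 51.3 CPM treated (-0.76 ± 0.13; adjusted p = 0.00954). Parp14 fell by 0.72 ± 0.12 and Slfn5 by 0.81 ± 0.14 (adjusted p = 0.00983 and 0.0111). Ifit1 and Cxcl10, 2 of the most inducible interferon targets, had -1.42 ± 0.65 and -1.67 ± 0.72 and did not pass. Ifit1 was at 73.9 and 55.0 CPM untreated, 18.5 and 11.2 CPM with mast cell supernatant and 42.3 CPM with trap supernatant, and fell with mast cell supernatant alone (-2.12 ± 0.35; adjusted p = 0.0128). Without mast cell supernatant replicate 3 the calls of Ifih1, Parp14 and Slfn5 were lost (adjusted p = 0.075, 0.0668 and 0.0668), and those of Parp14 and Slfn5 also without untreated replicate 6 (0.0808 and 0.0703). Ifih1, Parp14 and Slfn5 also lost their calls in a model of all 14 libraries with 6 groups, batch by arm (0.0963, 0.173 and 0.171). Among 23 genes of antigen presentation, 3 fell, beside 2.95% of all genes: Nlrc5, the MHC class I transactivator gene (-0.70 ± 0.11), H2-Q4 (-0.61 ± 0.13) and Tap1, a peptide transporter gene (-0.40 ± 0.10). Nlrc5 lost its call without mast cell supernatant replicate 3 (adjusted p = 0.0668), H2-Q4 without untreated replicate 6 or either mast cell supernatant library (0.161, 0.112 and 0.0929), and Tap1 with any of the 5 libraries left out (0.0708 to 0.237).

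Macrophage identity genes moved both ways, 4 up and 5 down among 29 tested, beside 0.99% up and 2.95% down of all tested genes. Those that rose include Maf, described above, and Ccr2, a chemokine receptor gene of monocytes, which went from 93.0 and 76.5 CPM to 120, 135 and 131 CPM (0.60 ± 0.11; adjusted p = 0.0141). Cx3cr1, the fractalkine receptor gene, was at 86.2 and 93.4 CPM untreated and 32.9, 32.4 and 38.0 CPM treated, a fall by 1.38 ± 0.10 (adjusted p = 0.000294). Tlr2, the receptor gene for bacterial lipoproteins, fell by 1.58 ± 0.17 from 420 and 499 CPM to 136, 133 and 192 CPM (adjusted p = 0.00364), while Tlr4, the lipopolysaccharide receptor gene, was higher in all 3 treated libraries without passing (0.54 ± 0.13; adjusted p = 0.0521). Mertk, a receptor gene for apoptotic cells, fell by 1.11 ± 0.13 (adjusted p = 0.00239), and Cebpa and Cebpb, myeloid transcription factor genes, fell too. Cx3cr1, Mertk and Maf passed with each library left out; Tlr2 did not without untreated replicate 6 (adjusted p = 0.0628), and Ccr2 failed without untreated replicate 6 and without either mast cell supernatant library (0.0874, 0.0546 and 0.0726).

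Adhesion and growth factor genes included several strong falls. Itgb3, the integrin beta 3 gene, was at 15.8 and 15.0 CPM untreated and 5.19, 4.82 and 5.90 CPM treated, a fall by 1.54 ± 0.16 (adjusted p = 0.00204). Of 26 integrin and adhesion genes, Cass4 rose and Icam1, Itga5, Itgal and Itgb3 fell, where 0.99% of all tested genes rose and 2.95% fell. Pdgfa and Pdgfb, the platelet-derived growth factor genes, had -1.24 ± 0.12 and -0.998 ± 0.12 (adjusted p = 0.00148 and 0.00258): Pdgfa was at 122 and 99.3 CPM untreated and 45.9, 43.0 and 52.2 CPM treated, and Pdgfb at 695 and 628 CPM against 299, 302 and 392.3 CPM. Metrnl, the gene of the secreted protein meteorin-like, rose by 0.98 ± 0.11, from 279 and 230 CPM to 541, 513 and 447 CPM (adjusted p = 0.00239). Cspg4, the proteoglycan NG2 gene, Osm, the oncostatin M gene, and Spry1, an inhibitor gene of growth factor signalling, also fell. In all, 1 of 19 growth factor genes rose and 5 fell, beside 0.99% and 2.95% of all tested genes. Without mast cell supernatant replicate 3 the calls of Itga5, Icam1, Cspg4 and Osm were lost (adjusted p = 0.0546, 0.101, 0.104 and 0.101); Icam1 also failed without untreated replicate 6 and mast cell supernatant replicate 5 (0.111 and 0.126), and Osm without either untreated library (0.061 and 0.0929).

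Of 24 TGF-beta and SMAD genes, 0 rose and 5 fell (2.95% of all tested genes fell), all of them feedback or modulator genes that the pathway itself raises or that restrain it: Bambi, Pmepa1, Skil, Smad6 and Smad7. Pmepa1 was at 4.76 and 3.24 CPM untreated and 0.340, 0.415 and 0.969 CPM treated (-2.77 ± 0.41; adjusted p = 0.00549), Smad6 at 3.27 and 3.30 CPM against 0.510, 0.997 and 1.13 CPM (-1.89 ± 0.35; adjusted p = 0.015), and Smad7 at 27.1 and 21.2 CPM against 10.3, 9.05 and 13.7 CPM (-1.13 ± 0.18; adjusted p = 0.00833). All 3 lost their call without mast cell supernatant replicate 3 (adjusted p = 0.0532, 0.0734 and 0.0791), and Smad6 also without untreated replicate 6 (0.0925). Against the same 2.95% of all genes, 0 of 20 circadian genes rose and 5 fell (Bhlhe40, Nfil3, Nr1d1, Rora and Usp2). Usp2 was at 9.94 and 11.1 CPM untreated and 2.89, 3.24 and 3.96 CPM treated. Bhlhe40, a transcriptional repressor gene, fell by 1.39 ± 0.23. Without untreated replicate 3, untreated replicate 6 or mast cell supernatant replicate 3 its log2 value was -1.26, -1.50 and -1.26, and the adjusted p (0.179, 0.281 and 0.107) no longer passed. Of 16 glucocorticoid targets, 3 fell, Klf9, Rhob and Sgk1, again beside 2.95% of all tested genes. Sgk1, a kinase gene, went from 199 and 201 CPM to 72.7, 72.6 and 102 CPM (-1.28 ± 0.14, adjusted p = 0.00247).

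Metabolic lists held few called genes. Over all tested genes 0.99% rose and 2.95% fell, the shares to set beside each list of this paragraph. Of 26 cholesterol and fatty acid synthesis genes 0 passed in either direction, although the median was 0.27 and 8 had all treated libraries higher (16.2% of all genes). In glycolysis and hypoxia, Pdk1, a kinase gene that restrains pyruvate use, rose (0.48 ± 0.11) and Hk2, a hexokinase gene, and Hif1a fell (-1.08 ± 0.15 and -0.57 ± 0.12) among 26. Mcm2, a DNA replication helicase gene, was the 1 of 31 cell cycle genes that rose (0.93 ± 0.19). Of the 31, 12 were higher in all treated libraries (16.2% of all genes) and 8 rose with mast cell supernatant alone (3.73% of all genes). Of 34 lysosome genes 1 fell, of 18 heat shock chaperones 1 fell, of 27 unfolded protein and ATF4 stress genes 2 fell, of 24 NRF2, glutathione and iron genes 0 passed, of 16 alternative activation markers 1 rose and of 26 LXR and apoptotic cell uptake genes 2 fell. Actin genes moved both ways, 3 up (Cdc42ep3, Fmnl1 and Was) and 4 down (Arhgap31, Arhgef3, Fmnl3 and Rhob) of 30, where 3.94% of all genes were called. Without mast cell supernatant replicate 3 all of these but Fmnl3 lost their call, as did Clec10a of the alternative activation markers, Scarb2 of the lysosome genes, Hspa4l of the chaperones and Nupr1 and Ppp1r15a of the stress genes (adjusted p = 0.0532 to 0.131). Without untreated replicate 6 the same genes but Nupr1 lost it (0.0593 to 0.194), and without mast cell supernatant replicate 5 so did Fmnl1, Was, Arhgef3, Rhob, Clec10a, Scarb2, Hspa4l and Ppp1r15a (0.0881 to 0.205). Without mast cell supernatant replicate 3 the calls of Mcm2, Pdk1, Hk2 and Hif1a were lost (adjusted p = 0.13, 0.125, 0.0723 and 0.108), and without untreated replicate 6 or mast cell supernatant replicate 5 so were those of Mcm2 (0.166 and 0.081), Pdk1 (0.196 and 0.188) and Hif1a (0.0649 and 0.11).

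Each supernatant was also set against the untreated libraries alone. In a model of all 14 libraries with 9 groups (batch by treatment), 1567 of 13756 genes passed with mast cell supernatant against the batch 3 untreated libraries (11.4%), 513 higher (3.73%) and 1054 lower (7.66%). With trap supernatant, which has 1 library that was assumed to vary like the other groups, 536 passed (3.9%), 288 higher (2.09%) and 248 lower (1.8%). These comparisons share their untreated libraries and have 2 treated libraries and 1, so their counts of calls do not measure a difference between the supernatants. Fitted on batch 3 alone they gave 811 and 229. Without untreated replicate 3 the counts became 2818 and 1705, and without mast cell supernatant replicate 3 the first became 807. Of the mast cell supernatant calls 32.74% were higher, beside 46.79% by upper-quartile scaling and 42.4% by library size alone. With mast cell supernatant 24 members of the NF-kB list, 19 of the interferon list and 20 of the immediate early list fell, beside 7.66% of all genes. With trap supernatant 11, 2 and 5 fell, beside 1.8%. The mast cell supernatant fold changes of the genes called in the main comparison were a median 0.69 in the rises and -0.79 in the falls, and those of trap supernatant 0.59 and -0.56. Those genes were called over both supernatants against the same untreated libraries, which favours a like direction in both. These medians therefore do not measure how far the supernatants agree.

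Compared directly, trap exceeded mast cell supernatant in 198 genes (1.44% of those tested) and fell below it in 3, together 201 (1.46%). Of the 490 genes of the main comparison, 14 differed between the supernatants (2.857%). A difference between supernatants widened the spread of the treated arm there and hindered a call. This count therefore does not measure how far the supernatants agree. Among immediate early genes 12 were higher with trap, among NF-kB genes 7 and among interferon genes 2, with 0 lower in each. Of the mast cell markers tested, 20 were higher with trap supernatant. With mast cell supernatant replicate 3 left out the 201 became 95, with mast cell supernatant replicate 5 left out 114, with untreated replicate 3 left out 388 and with untreated replicate 6 left out 421.

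Several mast cell transcripts were present in every treated library and almost absent from the untreated ones. Cpa3, the mast cell carboxypeptidase gene, had 1 count in each untreated library and 518, 478 and 4220 counts in mast cell supernatant replicates 3 and 5 and trap replicate 3, which is 44.0, 39.7 and 341 CPM. Pooled over the arms its ratio was 2369 (95% interval 655 to 19560, exact, counting error only). Mcpt4, a chymase gene, and Tpsb2, a tryptase gene, had no count in untreated cells and lay at least 2213-fold and 1803-fold higher than the floor of 3 counts in the untreated pair. Kit, the stem cell factor receptor gene, Slc18a2, a vesicular monoamine transporter gene, and Fcer1a, the IgE receptor alpha chain gene, exceeded their mast cell supernatant levels with trap supernatant by 3.21 ± 0.12, 3.28 ± 0.23 and 3.11 ± 0.24 (adjusted p = 5.65e-12, 3.02e-07 and 8.83e-07). Chymase and tryptase genes have close relatives among which reads could be divided in counting. In the main comparison 0 of 24 markers passed (Cpa3 adjusted p = 0.246). In all 3 treated libraries 21 were higher and 1 was lower, beside 16.2% and 17.6% of all tested genes. With mast cell supernatant alone 17 rose and 1 fell, and with trap supernatant alone 21 rose. The 29 markers summed to 1337 and 1291 CPM untreated, 1612 and 1503 CPM with mast cell supernatant and 3682 CPM with trap supernatant. Srgn, Cd63, Hpgds, Mitf and Ndst2, which macrophages also express, were the members abundant in untreated cells. Hdc, at 2.66 and 2.04 CPM, and Gata2, at 5.68 and 5.28 CPM, were present there at lower levels. Summed levels of the 23 neutrophil markers were 415 and 458 CPM untreated and 362 to 394 CPM treated. Of 18 tested 1 fell, Lcn2 (-0.90 ± 0.13, adjusted p = 0.00549), beside 2.95% of all tested genes. Mesothelial markers had 0 counts. In RNA of whole wells, fewer cells of a type and less RNA per cell cannot be told apart. The part of mast cell transcripts in the changes above was not tested.

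Xist, the RNA that silences an X chromosome in female cells, had 0 counts in both untreated libraries, 36 and 29 with mast cell supernatant and 289 with trap supernatant. Trap exceeded mast cell supernatant by 3.09 ± 0.27 on the log2 scale, with 1 trap library. The order was not the same in the other batches. In batch 2 Xist was at 14.8 CPM of the total with mast cell supernatant and 7.28 with trap supernatant. In batch 1 it was at 0.501 and 0.914 with mast cell supernatant and 0.488 with trap supernatant. The Y-linked genes Ddx3y, Eif2s3y, Kdm5d and Uty, chosen after seeing the data, were present in all 5 libraries, Ddx3y at 37.0 to 48.4 CPM of the total.

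Batch 1 has the same make-up as batch 3 and no library in common with it. Of the 490 called genes, 213 had the same sign in batch 1 (43.47%, beside 50.67% of all tested genes), 67.48% of the rises and 35.42% of the falls. In batch 2, 426 had the same sign (86.94%, beside 58.82%), 95.12% of the rises and 84.2% of the falls. The median log2 difference of the rises was 0.09 in batch 1 and 0.26 in batch 2, and that of the falls 0.14 and -0.26. Over 11825 genes, mast cell markers left out, the log2 differences of batch 3 had r = 0.021 with those of batch 1 and r = 0.589 with those of batch 2, given as a description since genes are not independent replicates.

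**Figure D4:**
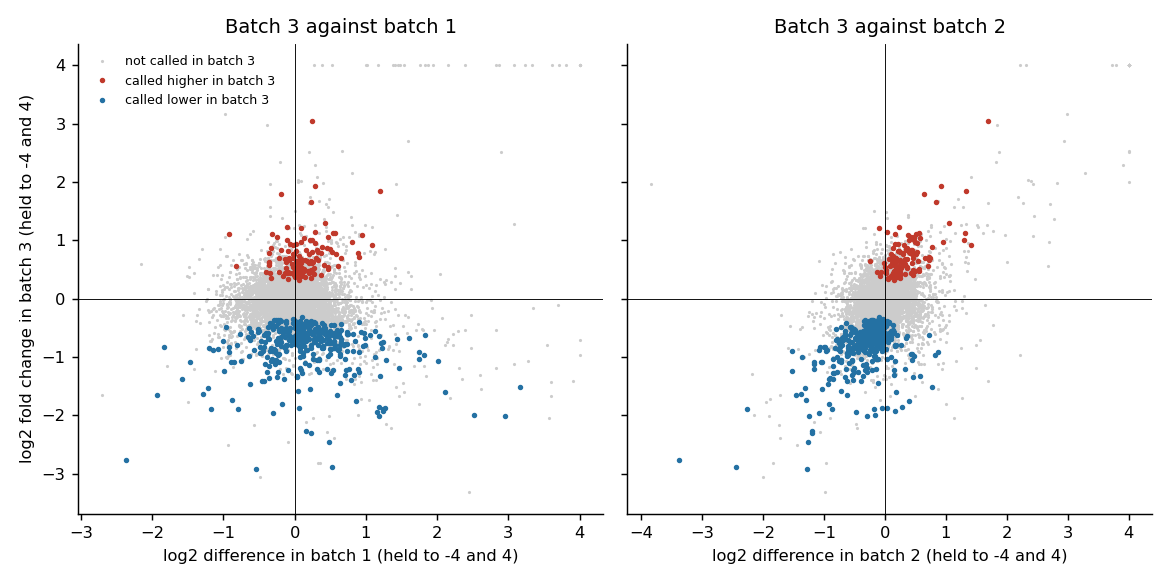
Log2 difference of any supernatant from untreated in batch 3 (y axis) against that in batch 1 (left) and batch 2 (right), each held to -4 and 4, for genes averaging 1 CPM or more; called genes are red (higher) and blue (lower). Of all 367 genes called lower in batch 3, 35.42% have a negative value in batch 1 and 84.2% in batch 2. The 367 include 3 genes under 1 CPM that are not shown.

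The difference between batches was tested itself, in a model of all 14 libraries with 6 groups (batch by arm). The response of batch 3 differed from that of batch 1 in 1121 of 13313 genes (8.42%), higher in 292 (2.19%) and lower in 829 (6.23%), and 315 of the 490 genes called in batch 3 (64.29%) were among them. Against batch 2, which has 1 library of each supernatant, 0 genes differed (0%) by edgeR, while 1249 had an unadjusted p under 0.05; DESeq2 called 57 and limma-voom 1. Without untreated replicate 3, trap replicate 2 or trap replicate 3 edgeR called 300, 148 and 56. The count against batch 1 was 501 without untreated replicate 1 and 521 without untreated replicate 4. Of the calls against batch 1 26.05% were higher, beside 43.04% by upper-quartile scaling and 61.76% by library size alone, which moved the median of all genes by 0.152. Of the 6 genes furthest below batch 1 among those averaging 5 CPM or more, 3 are given here. Cxcl1 had a log2 difference of 4.43 in batch 1, 1.56 in batch 2 and -0.87 in batch 3 (batch 3 minus batch 1, -5.15 ± 0.79; adjusted p = 0.00563). Nr4a3 had 2.45, -0.97 and -4.02 (-5.81 ± 1.14; adjusted p = 0.0167) and Osm 3.17, 0.77 and -1.57 (-4.68 ± 0.70; adjusted p = 0.00478). By list, 26 of the NF-kB genes, 29 of the immediate early genes and 10 of the chemokines were lower in batch 3 than in batch 1, and their medians in batch 1 were 0.70, 1.33 and 1.24. Genes whose difference from batch 1 did not pass include Itgb3 (-1.22, -1.30 and -1.53 in batches 1, 2 and 3; batch 3 minus batch 1 adjusted p = 0.39), Spsb1, Pdgfa and Metrnl (adjusted p = 0.557, 0.411 and 0.439). Batch 3 also differs in Lyz2 from both batch 1 and batch 2, as described above. The part of Lyz2 in these differences was not tested.

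**Figure D5:**
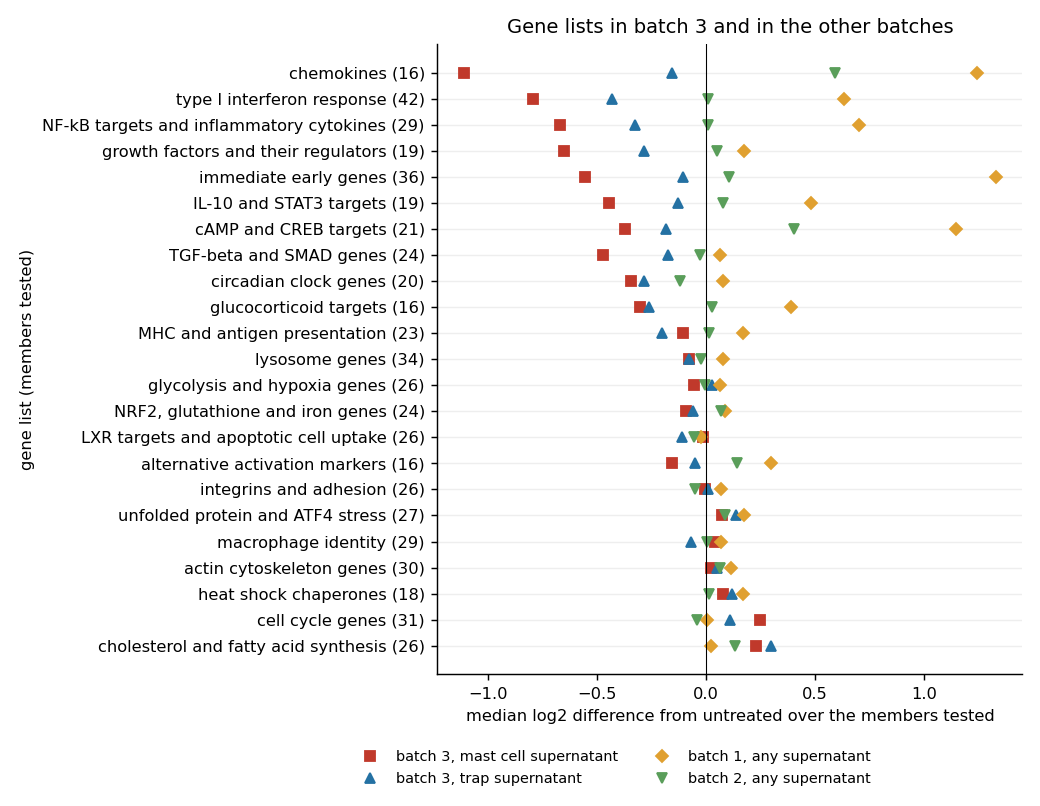
Median log2 difference from untreated over the tested members of each gene list (number in brackets), for mast cell and trap supernatant in batch 3 and for any supernatant in batches 1 and 2. The NF-kB, immediate early and interferon medians are negative with both supernatants of batch 3, at 0 or above in batch 2 and positive in batch 1, where the immediate early median is 1.33.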

How the data were processed

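The values the authors deposited are whole-number read counts for each gene, unnormalised, made with featureCounts 2.0.0 on GRCm38 per the submitters' processing notes. Per the labels, RNA was extracted with Qiagen's RNeasy Plus Micro and libraries made with an Illumina stranded mRNA kit. Which aligner, annotation release, strand setting and read filters were used is not stated there. The table holds 47937 genes; 47310 had a symbol in GENCODE M21, whose GRCm38 coordinates are used. Promoters are RefSeq windows on GRCm38.p6.

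The tests ran in edgeR 4.0.16 under R 4.3.3: filterByExpr, TMM scaling and a robust quasi-likelihood F test with Benjamini-Hochberg adjustment at 0.05. The main comparison used the 5 libraries of batch 3; the other comparisons used all 14. Alternatives used DESeq2 1.42.0 and limma 3.58.1. Levels are CPM, and log2 differences by batch use a prior count of 1. A floor is 3 counts over the untreated pair (0.0913 CPM), and reads carry no molecular identifiers, so intervals cover counting error only.

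Named genes were the 12 largest called rises and falls with a mean of at least 5 CPM, up to 3 called members per list and direction, a fixed panel, and up to 6 per direction for the other comparisons; other genes given with values were chosen after these were seen. Some members of the macrophage identity list are not reported here by name. The members and lists were chosen with earlier results of these data known. The scripts were tested on simulated data with known changes, where the main comparison made more false calls than its threshold allows for and missed many of the smallest changes.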

Additional observations from a re-analysis of the deposited data

Results flagged for a closer look

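The response to supernatant was tested for a difference between batches, and every result here comes from that test. Between batch 3 and batch 1, 1121 of 13313 genes differed, and between batch 3 and batch 2, 0 did. The genes with the largest differences from batch 1 and a mean of at least 5 CPM were Nr4a3 (-5.81), Ccl7, a monocyte chemokine gene (-5.32; adjusted p = 0.0281), Cxcl1 (-5.15), Nr4a1 (-5.05; adjusted p = 0.00684), Arc (-4.99; adjusted p = 5.09e-05) and Osm (-4.68) on the lower side. In these 6 the log2 difference was positive in batch 1 and negative in batch 3. On the higher side they were Cnr2 (2.01; adjusted p = 4.97e-05), Cdca7, a cell cycle gene (1.72; adjusted p = 0.0243), Scd2, a fatty acid desaturase gene (1.68; adjusted p = 0.00402), Tifab (1.39; adjusted p = 0.0288), Ppp1r3b, a glycogen-targeting phosphatase subunit gene (1.35; adjusted p = 0.000336), and Dusp6 (1.35; adjusted p = 0.0496), each negative in batch 1 and positive in batch 3. Groups of 2 and 3 libraries are too small for a search for single outlying samples.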

How the results depend on the processing

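The 490 genes of the main comparison became 747 by DESeq2, 1178 with no filter on low counts, 1099 in a model of all 14 libraries, and 93 to 1012 when each library was left out. They were 534 by limma-voom, 554 by upper-quartile scaling, 480 by library size alone, and, with alternatives chosen after seeing the data, 544 with libraries thinned to one depth, 499 without robust dispersion and 105 with the mast cell replicates summed to 1 library. With untreated replicate 3 left out 46.44% of calls were higher, beside 25.1%, and with any other library left out 18.18% to 23.03%. Mast cell supernatant calls were 811 from batch 3 libraries alone and 807 to 2818 with libraries left out, and 46.79% were higher by upper-quartile scaling, beside 32.74%. Trap supernatant calls were 907 without the filter, 229 from batch 3 alone and 488 to 1705 with libraries left out, and trap against mast cell supernatant gave 373, 104 and 95 to 421. Batch 3 against batch 1 gave 501 to 1560 with libraries left out, and 43.04% of its calls were higher by upper-quartile scaling and 61.76% by library size alone, beside 26.05%, while library size moved the median of all genes by 0.152. Batch 3 against batch 2 gave 57 by DESeq2, 1 by limma-voom, 471 without the filter, 148 with 9 groups and 0 to 300 with libraries left out; the causes were not tested. Of 1092 values of the 78 called named genes under the alternatives, 910 kept their call, 182 lost it and 0 changed sign. Of the losses 45 came with the mast cell replicates summed and 12 with the model of all 14 libraries. The 12 include Gbp5, Osm and Nfil3 (adjusted p = 0.108, 0.126 and 0.273). No paired analysis was possible because the groups compared share fewer than 2 replicate numbers within batch 3.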

Other observations

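Several of the steepest changes were in genes of low level, under the 5 CPM mean asked of the named genes, and were chosen after their values were seen. Nxph3, a neurexophilin gene, rose by 3.05 ± 0.36 on the log2 scale, from 0.494 and 0.360 CPM untreated to 3.15, 3.99 and 3.64 CPM treated (adjusted p = 0.00239). Rab19, a Rab GTPase gene, rose by 1.93 ± 0.31, and Palm3 by 1.65 ± 0.33. Edn1, the endothelin-1 gene, fell by 2.95 ± 0.51, from 2.04 and 1.5 CPM to 0.0850, 0.249 and 0.323 CPM (adjusted p = 0.0108). Rasd2, a small GTPase gene, fell by 2.92 ± 0.40 and Wnt9a, a Wnt ligand gene, by 1.87 ± 0.34. The log2 difference of Edn1 was 3.87 in batch 1 and -1.24 in batch 2, and that of Nxph3 was 0.25 and 1.70.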
